A study of Mus musculus with 2 samples.

Results

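The 37 genes described here are the lipid absorption and apolipoprotein genes of the mouse small intestine, chosen by symbol from a fixed list out of 32285 genes in the deposited gene lists, and all 37 were found. By role they comprise 5 apolipoproteins, 4 genes of chylomicron assembly and transport, 6 of triglyceride synthesis, 4 of fatty acid uptake and binding, 6 of sterol uptake, efflux and esterification, 4 of lipid droplets and lipolysis, 5 of fatty acid oxidation and its regulators, and 3 of vitamin A handling. They were measured by single-cell RNA-Seq in Tomato-positive epithelial cells sorted from whole small intestine, in which a Neurog3-driven Cre recombinase had switched on the red reporter tdTomato, so that descendants of Neurog3-expressing endocrine progenitors stayed red. Both groups carried Neurog3Cre and Rosa26tdtomato; the WT library carried nothing more by its labels, and the NFKO-labelled library came from Neurog3Cre-FoxO1 f/f mice, in which the same Cre should delete FoxO1. Each library pooled the intestines of 4 to 5 mice aged 4 to 6 weeks, and there was 1 library per group, so that no value has a replicate and no test between groups was possible. The cells are those that the Neurog3 reporter marks, not a sample of the whole epithelium.

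Absorbed fatty acids and monoacylglycerol are taken up at the brush border of the enterocyte, bound by fatty acid binding proteins, re-esterified to triglyceride in the endoplasmic reticulum and loaded onto apolipoprotein B by the microsomal triglyceride transfer protein. The resulting chylomicrons, which also carry APOA1, APOA4, APOC2 and APOC3, leave the cell towards the lymph. Cholesterol enters and leaves through separate transporters, and retinol from the diet travels with the same particles as retinyl ester. These genes are known as markers of absorptive villus cells of the proximal gut, with Fabp6 and bile acid transporters marking the ileum, while goblet, Paneth and enteroendocrine cells are secretory.

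Filtering kept 2982 WT cells and 5287 cells of the NFKO-labelled library, with medians of 16913 and 17119 unique molecular identifiers (UMIs), each of which marks 1 captured transcript molecule. Levels are in CPM, the UMIs of a gene counted for every 1000000 UMIs in the cells named, with exact 95% Poisson intervals in parentheses. Where a pair of values is given without names, WT comes first. Ratios are always the NFKO-labelled library over WT, with exact conditional binomial intervals, and all intervals cover counting error only. Because the kit counts the 3′ end of each molecule once, levels of different genes compare molecules and need no length correction. Foxo1, the targeted gene, had 11.6 CPM (10.9 to 12.4) in WT and 12.3 (11.7 to 13.0) in the NFKO-labelled library. With all kept cells pooled, the ratio of 1.06 (0.977 to 1.16) showed no decrease. In enteroendocrine-like cells Foxo1 was lower, at 27.2 and 22.5 CPM, a ratio of 0.827 (0.720 to 0.951). Its ratio was 0.971 (0.727 to 1.30) in enterocyte-like and 0.908 (0.734 to 1.13) in goblet-like cells. The paper reports a significant drop of FoxO1 expression in sorted Tomato-positive cells of NFKO mice. Every direction below rests on the label, and a transcript with an internal deletion could still be counted. The pools also differed in sex, with 2411 male-typed and 6 female-typed cells in WT against 359 and 4350 in the NFKO-labelled library, so that sex and label cannot be told apart over all cells. The heat shock gene Hspa1a was at 297 and 22.9 CPM in the respective libraries, and 35.6% and 17.3% of barcodes had exceeded the limit on mitochondrial UMIs. The libraries shared 6 cell barcodes, 4 of them among kept cells.

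Enterocyte-like cells, in which all 12 enterocyte markers were raised against the remaining cells, numbered 245 in WT and 352 in the NFKO-labelled library. At a finer clustering resolution they divided into a pair of states, named here by their leading gene outside the 37. The Mme-led state, which had the higher Lct and Anpep levels of a brush border, held 121 and 246 cells with medians of 3990 and 5091 UMIs. The Apol10a-led state held 124 and 106 cells with far deeper medians of 35972.5 and 32845.5 UMIs. Because of that depth the Apol10a-led state supplied 89.1% of the enterocyte-like UMIs in WT and 48.6% in the NFKO-labelled library, so that a ratio over the whole class mixes the states in different proportions. The 12 enterocyte markers summed to 8173 and 11594 CPM in the Mme-led and 1832 and 2493 CPM in the Apol10a-led state. Values are therefore given for the class and for each state. Within the Mme-led state the median mitochondrial share was 15.6% in WT and 9.66% in the NFKO-labelled library, and Hspa1a was at 379 and 8.72 CPM. The 7 goblet markers summed to 5358 and 15841 CPM there and to 21244 and 11233 CPM in the Apol10a-led state, and Reg3b, a gene of the villus base, was at 33284 and 83353 CPM and 70189 and 64136 CPM respectively; the part of any of these in the results was not tested, nor was whether the deep Apol10a-led state still held doublets of enterocyte and goblet cells.

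Promoter windows from RefSeq (GRCm38.p6), reaching from 250 bases before to 50 bases after the annotated start, were matched by symbol for 30 of the 37 genes; those not matched were Apoc3, Tm6sf2, Mogat2, Dgat1, Dgat2, Scarb1 and Soat2. The windows below belong to 4 genes that were abundant in enterocyte-like cells and also well above background in another class, as given further on. They were searched on both strands for AGATAA, the core of a motif bound by GATA factors, for TTTATNG, bound by CDX factors, and for CAAAGTCCA or CAAAGGTCA, bound by HNF4 and related receptors, and capitals mark a match on either strand.
Rbp2 (chr9:98490287-98490586, plus strand): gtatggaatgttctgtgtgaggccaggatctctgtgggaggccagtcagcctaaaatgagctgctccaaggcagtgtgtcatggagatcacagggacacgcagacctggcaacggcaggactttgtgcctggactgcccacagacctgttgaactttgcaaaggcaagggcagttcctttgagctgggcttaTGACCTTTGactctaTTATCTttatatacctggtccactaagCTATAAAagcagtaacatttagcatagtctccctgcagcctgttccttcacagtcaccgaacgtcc
Fabp1 (chr6:71199629-71199928, plus strand): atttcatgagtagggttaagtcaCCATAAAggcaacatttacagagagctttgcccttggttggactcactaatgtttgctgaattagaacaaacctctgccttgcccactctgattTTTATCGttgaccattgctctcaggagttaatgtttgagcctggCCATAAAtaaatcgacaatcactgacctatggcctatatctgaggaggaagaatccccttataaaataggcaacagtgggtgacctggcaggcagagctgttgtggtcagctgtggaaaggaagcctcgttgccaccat
Fabp2 (chr3:122894822-122895121, plus strand): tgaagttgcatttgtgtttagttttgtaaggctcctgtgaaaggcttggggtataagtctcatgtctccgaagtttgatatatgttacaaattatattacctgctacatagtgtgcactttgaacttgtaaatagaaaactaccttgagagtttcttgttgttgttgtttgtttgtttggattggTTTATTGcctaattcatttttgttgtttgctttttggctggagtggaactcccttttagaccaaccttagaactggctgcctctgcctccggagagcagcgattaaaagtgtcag
Apoc2 (chr7:19677892-19678191, minus strand): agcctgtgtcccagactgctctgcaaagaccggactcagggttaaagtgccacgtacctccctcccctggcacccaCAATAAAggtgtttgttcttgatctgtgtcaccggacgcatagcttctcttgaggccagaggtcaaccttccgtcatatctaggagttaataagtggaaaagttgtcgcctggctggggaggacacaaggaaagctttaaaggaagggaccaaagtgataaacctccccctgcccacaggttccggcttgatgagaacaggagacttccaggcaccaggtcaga
The Rbp2 window held 1 match to each of 3 motifs, CAAAGGTCA, AGATAA and TTTATNG, while the Fabp1 window held 3 matches to TTTATNG and the Fabp2 and Apoc2 windows 1 each. TTTATNG was present in a window of 11 of the 30 genes, or 36.7%, beside 10.9% of all 32851 promoter windows of the same length. These shares set genes beside single windows, so their units differ. AGATAA was in 4 of 30, or 13.3%, beside 11.2%. Either HNF4 motif was in 2 of 30 (Rbp2 and Bco1), or 6.67%, beside 0.950%. Abcg5 and Abcg8, which are transcribed away from each other from neighbouring starts and hold both AGATAA and TTTATNG, share sequence and are not independent. A match is a description of letters, not of a bound site.

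In enterocyte-like cells the lipid genes together made up 6269 CPM in WT and 34391 in the NFKO-labelled library. Ordered by level in the NFKO-labelled library, the leading genes were Fabp2, Apoa1, Rbp2, Fabp1, Apoa4 and Apoc2, and in WT they were Apoa1, Fabp2, Fabp1, Rbp2, Dgat1 and Mttp. Of the 35 with at least 50 UMIs, 24 were at least 1.5-fold higher in the NFKO-labelled library, 1 was at least 1.5-fold lower and 10 lay between. Over all 9081 genes with as many UMIs, 10.5% were higher and 9.49% lower by this fold, and the median log2 ratio was 1.02 over the lipid genes and -0.03 over all genes. All 12 enterocyte markers were at least 1.5-fold higher as well, and among male-typed cells alone the counts were 25 higher and 0 lower of 32, beside 11.2% and 16.8% of all genes. Male-typed enterocyte-like cells numbered 156 in WT and 24 in the NFKO-labelled library, of which 109 and 8 were of the Apol10a-led state, so that the states were mixed in unequal proportions there too. By role, all 5 apolipoproteins and all 4 uptake genes were past the fold on the higher side, as were 5 of 6 triglyceride synthesis genes and 3 of 4 of chylomicron assembly, but 2 of 5 sterol genes, 2 of 4 droplet genes and 1 of 5 oxidation genes. Within the Mme-led state 19 of 34 lipid genes were higher and 0 lower, beside 30.2% and 18.9% of all genes; 7 of the 12 enterocyte markers were higher there. Within the Apol10a-led state 11 of 33 were higher and 1 lower, beside 6.98% and 7.57% of all genes; of 11 enterocyte markers 4 were higher and 1 lower, a similar share on the higher side. Fewer lipid genes were thus past the fold within either state than over the class.

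**Figure D1:**
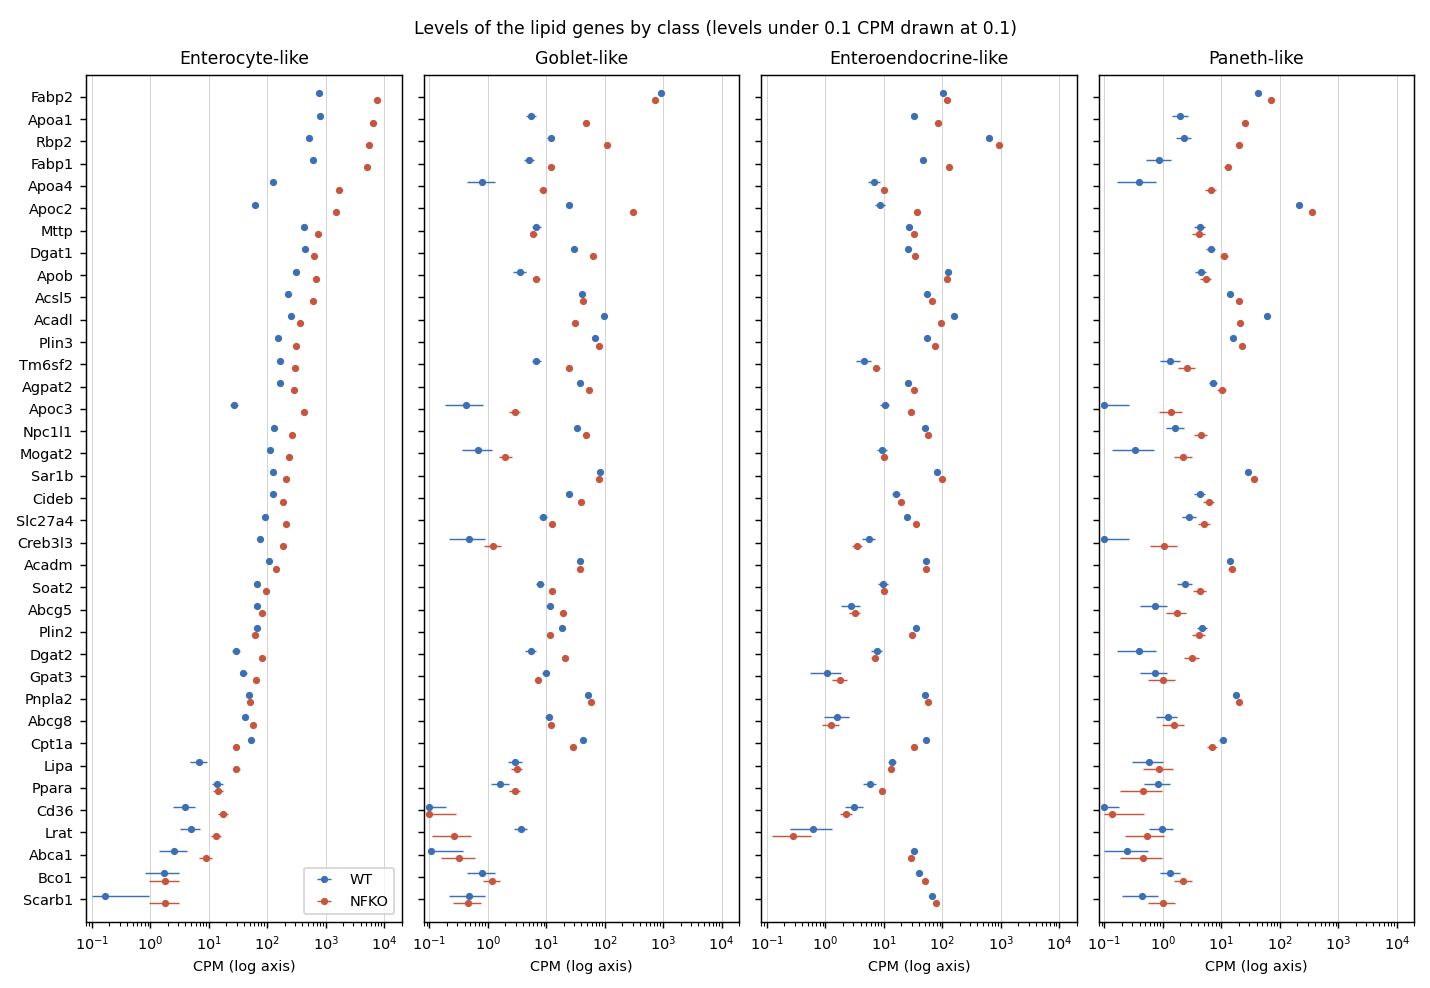
Levels of the 37 lipid genes in 4 classes, in CPM on a log axis, with WT in blue and the NFKO-labelled library in red; points are the level over all cells of the class and lines the exact 95% Poisson interval. Fabp2, Apoa1, Rbp2 and Fabp1 lead in enterocyte-like cells, Fabp2 stays near 911 and 714 CPM in goblet-like cells, and Scarb1, lowest in enterocyte-like cells, reaches 67.0 and 78.3 CPM in enteroendocrine-like cells.

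The 3 highest class ratios were those of Apoc2, Apoc3 and Apoa4, all apolipoproteins. Apoa1, the main protein of high-density lipoprotein and a chylomicron surface protein (ENSMUSG00000032083, chr9:46228580-46230466, plus strand of GRCm38), was at 788 CPM (766 to 811) in WT and 6416 (6357 to 6475) in the NFKO-labelled library, a ratio of 8.14 (7.90 to 8.39). In the Mme-led state it was at 5145 and 12031 CPM, a ratio of 2.34 (2.26 to 2.42), and in the Apol10a-led state at 254 and 479 CPM, a ratio of 1.89 (1.75 to 2.03). Its direction therefore held in both states, at a smaller size than over the class. Apoa4, a chylomicron protein whose output follows fat intake (ENSMUSG00000032080, chr9:46240696-46243459, plus strand), was at 124 CPM in WT and 1669 in the NFKO-labelled library, with a ratio of 3.79 in the Mme-led state and 2.17 in the Apol10a-led state. Apoc3, which restrains lipoprotein lipase and lies between the other two on the chromosome (ENSMUSG00000032081, chr9:46232933-46235636, minus strand), was at 26.8 CPM in WT and 427 in the NFKO-labelled library. The state ratios of Apoc3 were 7.16 (5.65 to 9.21) and 3.39 (2.62 to 4.41). Apoc2, the activator of lipoprotein lipase (ENSMUSG00000002992, chr7:19671579-19677941, minus strand), had the largest class ratio of the 35, 24.2 (21.8 to 26.9), from 61.4 CPM in WT and 1486 in the NFKO-labelled library, and it stayed at 6.31 and 5.87 within the states. Apob, the structural protein of the chylomicron (ENSMUSG00000020609, chr12:7977648-8016835, plus strand), went another way: its class ratio of 2.24 (2.13 to 2.37) became 1.17 (1.08 to 1.27) in the Mme-led state and 0.740 (0.669 to 0.819) in the Apol10a-led state. The 4 exchangeable apolipoproteins were thus past the fold in both states and Apob in neither.

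Among the genes of chylomicron assembly, Mttp, which encodes the large subunit of the transfer protein, was at 435 CPM in WT and 737 in the NFKO-labelled library in the class, and its ratios were 1.19 and 0.986 in the Mme-led and Apol10a-led states. Sar1b, the small GTPase needed for chylomicron exit from the endoplasmic reticulum, had a class ratio of 1.69; in the Mme-led state it was at 40.4 and 228 CPM, where the WT level rests on 26 UMIs. Tm6sf2, which aids lipidation of lipoproteins, had ratios of 2.52 and 1.33 in the states, and Cideb, which acts in lipoprotein lipidation and droplet fusion, 1.02 and 1.07. Mttp and Cideb were thus within 1.5-fold in either state.

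Of the triglyceride synthesis genes, Dgat1, which makes the last step to triglyceride, was the most abundant, at 436 CPM in WT and 642 in the NFKO-labelled library, and its state ratios of 0.810 (0.747 to 0.879) and 1.03 (0.954 to 1.10) did not reach the fold. Mogat2, the monoacylglycerol acyltransferase of the gut, was at 132 and 336 CPM in the Mme-led state and 111 and 136 CPM in the Apol10a-led state. Acsl5, an acyl-CoA synthetase, had state ratios of 1.95 and 1.36, and Dgat2 of 1.68 and 1.81. Dgat2, lower in level than Dgat1, was the gene of this group past the fold in both states. The acyltransferases Agpat2 and Gpat3 had ratios of 1.71 and 1.65 over the class, and Gpat3 of 0.701 in the Apol10a-led state.

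Both fatty acid binding proteins of the enterocyte differed far more than Slc27a4. Fabp1, the liver type (ENSMUSG00000054422, chr6:71199827-71205023, plus strand), was at 609 CPM (589.6 to 629.7) in WT and 5170.4 (5118 to 5223) in the NFKO-labelled library. It was at 1241 and 8349.6 CPM in the Mme-led state, a ratio of 6.73 (6.27 to 7.23), and at 532 and 1809 CPM in the Apol10a-led state, a ratio of 3.40 (3.25 to 3.56). Fabp2, the intestinal type (ENSMUSG00000023057, chr3:122895072-122899506, plus strand), was at 767 CPM (744 to 789) in WT and 7656 (7592 to 7720.1) in the NFKO-labelled library, with state ratios of 6.42 (6.08 to 6.77) and 1.94 (1.85 to 2.03). For each of these genes the NFKO-labelled library was the higher one in class and states alike. Slc27a4, a fatty acid transport protein with acyl-CoA synthetase activity, had state ratios of 1.16 and 0.834, and Cd36, a fatty acid receptor, had few molecules, 23 UMIs in WT and 126 in the NFKO-labelled library, or 3.90 and 17.6 CPM.

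Of the 5 sterol genes with at least 50 UMIs, 1 was past the fold in a single state. Npc1l1, the cholesterol importer of the brush border and the target of ezetimibe, was at 323 and 409 CPM in the Mme-led and 106 and 109 CPM in the Apol10a-led state. Soat2, which esterifies cholesterol, had state ratios of 0.893 (0.726 to 1.11) and 0.645 (0.518 to 0.801), the latter past the fold on the lower side. The half-transporters Abcg5 and Abcg8, which together return sterols to the lumen, had ratios of 0.757 and 0.984 in the Mme-led state and 0.754 and 0.673 in the Apol10a-led state. Abca1, which exports cholesterol to APOA1, and Scarb1, a receptor of high-density lipoprotein, were scarce in enterocyte-like cells, at 2.54 and 8.96 CPM and 0.170 and 1.82 CPM.

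Of the lipid droplet and lipolysis genes, the droplet coat gene Plin2 was nearly level, at 66.7 and 62.6 CPM, while Plin3, another droplet coat gene, had a class ratio of 1.97 and state ratios of 2.11 and 1.51. The adipose triglyceride lipase gene Pnpla2 had a class ratio of 1.04 (0.887 to 1.21), and Lipa, the lysosomal acid lipase, 4.40 (3.12 to 6.33) at 6.78 and 29.8 CPM. Cpt1a, the gatekeeper of fatty acid entry into mitochondria, was the single lipid gene past the fold on the lower side, at 52.6 CPM in WT and 29.4 in the NFKO-labelled library, a ratio of 0.559 (0.467 to 0.669). In the Apol10a-led state, which held most of its molecules, its ratio was 0.716 (0.582 to 0.878); in the Mme-led state it was 1.01 (0.542 to 2.05) on 12 and 69 UMIs. The acyl-CoA dehydrogenases Acadl and Acadm had class ratios of 1.42 and 1.28, the receptor Ppara 1.01 (0.752 to 1.37), and Creb3l3, a transcription factor of lipoprotein genes, 2.44 (2.19 to 2.72) over the class but 1.32 (1.11 to 1.59) and 1.36 (1.15 to 1.60) in the states.

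Rbp2, the cellular retinol-binding protein of the enterocyte (ENSMUSG00000032454, chr9:98486115-98509781, plus strand), was at 520.0 CPM (502 to 539) in WT and 5569 (5514 to 5624) in the NFKO-labelled library, a ratio of 10.7 (10.3 to 11.1). Its state ratios were 5.86 (5.51 to 6.24) and 4.17 (3.97 to 4.39). Lrat, which esterifies retinol, was scarce, at 4.92 and 13.4 CPM, and Bco1, which cleaves beta-carotene, was at 1.70 and 1.82 CPM, too few UMIs to be counted among the 35. Vitamin A handling was thus represented in these cells by Rbp2 far above the other pair.

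**Figure D2:**
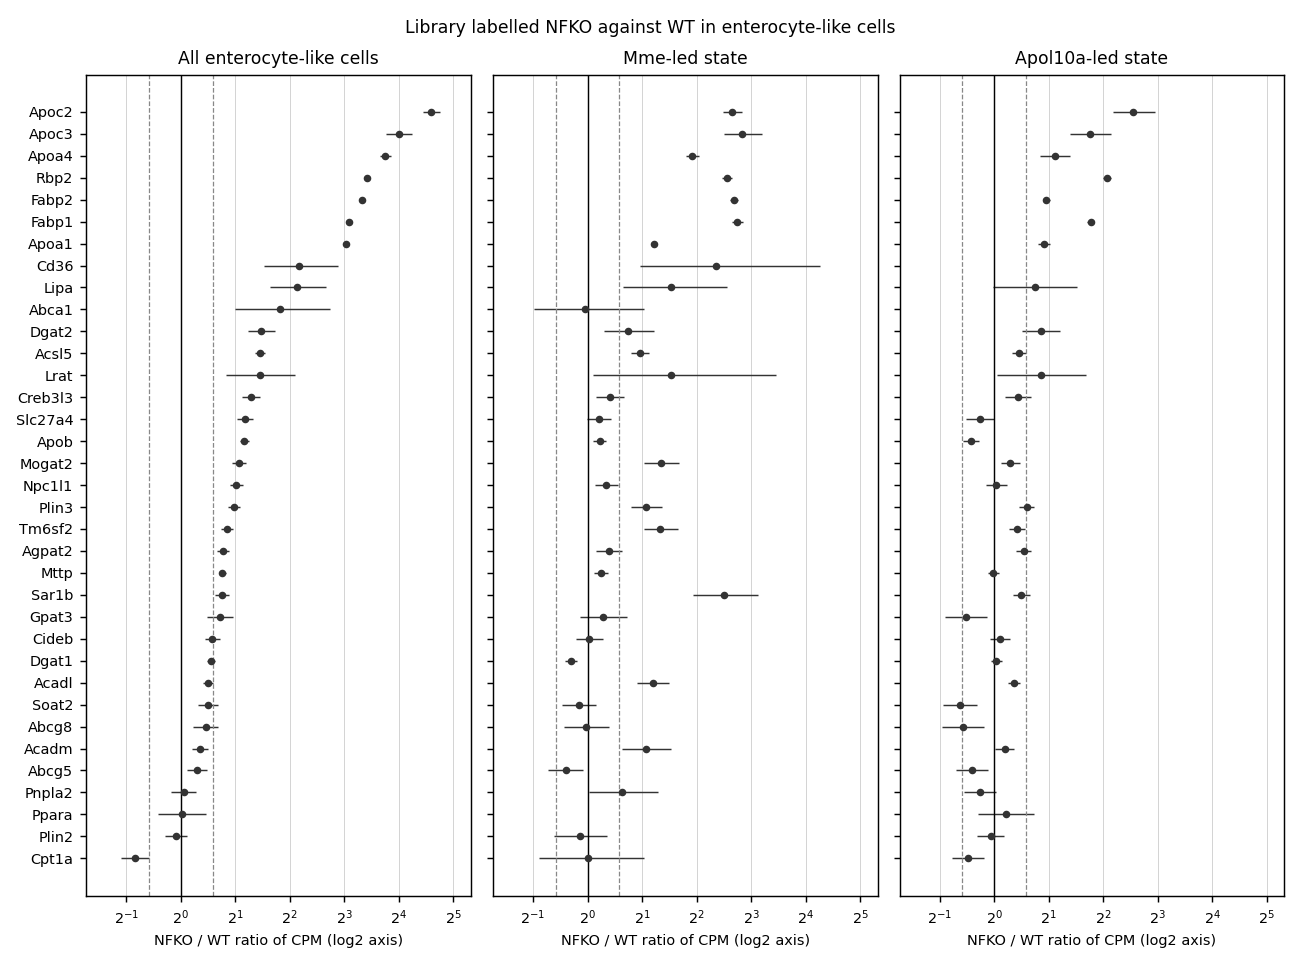
Ratio of the NFKO-labelled library to WT, on a log2 axis, for the 35 lipid genes with at least 50 UMIs in enterocyte-like cells, over all those cells and within each state; lines are exact 95% conditional binomial intervals, dashed lines mark 1.5-fold, and genes under 50 UMIs in a state are not drawn. Apoc2, Apoc3, Rbp2 and Fabp1 stay at 3.39 or above in both states, while Apob, Mttp and Dgat1 fall back to between 0.740 and 1.19.

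The states were each divided further by Fabp6, the ileal bile acid binding protein, at 1000 CPM of a cell's own UMIs; this division was chosen after the data had been seen, and it marks a range, with 29 WT cells and 19 cells of the NFKO-labelled library between 300 and 3000 CPM. Cells at or above the limit made up 27.8% of enterocyte-like cells in WT and 15.3% in the NFKO-labelled library. Among Mme-led cells of WT, Fabp1 had 799 UMIs in Fabp6-low cells and 0 in Fabp6-high cells, and Apoa4 534 and 5; in the NFKO-labelled library Fabp1 was at 9911 and 143 CPM, and Apoa4 at 3764 and 64.8 CPM. Creb3l3 followed them, at 322 and 80.1 CPM in the same cells, and so did Rbp2, at 10820.3 and 1307 CPM. Apoa1, Fabp2, Npc1l1 and Dgat1 did not: in the NFKO-labelled library they were at 12015 and 12115, 13482 and 15496, 396 and 476, and 934 and 770.5 CPM. In WT, Rbp2 was at 2479.6 and 115 CPM in Fabp6-low and Fabp6-high cells, Creb3l3 at 334 and 16.5, Apoa1 at 6201 and 3403, and Fabp2 at 2572 and 1457. Fabp1, Apoa4, Creb3l3 and Rbp2 were thus far lower in cells with much Fabp6 in both libraries, and Apoa1, Fabp2, Npc1l1 and Dgat1 differed less across the limit.

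The libraries were also compared within these divisions, which did not match them for every regional gene: among Fabp6-low cells of the Mme-led state the 4 genes of the proximal panel summed to 352 and 633 CPM, with Lct at 185 and 423 CPM, and Ada, a gene of the villus tip, was at 9.98 and 76.2 CPM. The part of region and villus position was not tested. In these 83 and 209 cells, Fabp1 was at 1993 and 9911 CPM, Fabp2 at 2572 and 13482 CPM, Rbp2 at 2479.6 and 10820.3 CPM and Apoc2 at 674 and 3159 CPM. Apob at 1093 and 1274 CPM, Mttp at 1055 and 1175 CPM and Creb3l3 at 334 and 322 CPM lay within 1.5-fold in the same cells. In the 38 and 37 Fabp6-high cells of that state, Fabp2 was at 1457 and 15496 CPM and Apoa1 at 3403 and 12115 CPM. The Fabp6-high cells of the Apol10a-led state, 30 and 17 in number, had 2 of 23 lipid genes past the fold on the higher side and 6 on the lower, beside 9.37% and 8.64% of all genes.

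The lipid genes were next compared between classes within each library, to see which of them marked enterocyte-like cells. In WT, 23 of the 37 were at least 2-fold higher in enterocyte-like cells than in each of the goblet-, enteroendocrine- and Paneth-like classes, beside 6.41% of all genes, and 5 were at least 2-fold lower than in the highest of those classes, beside 46.6% of all genes. In the NFKO-labelled library the counts were 31 and 3, beside 7.98% and 49.3%. These counts use levels over the whole enterocyte-like class. The Apol10a-led state supplied 89.1% of its UMIs in WT and 48.6% in the NFKO-labelled library, and the counts are not given by state here. The genes lower in enterocyte-like cells in both libraries were Scarb1, Abca1 and Bco1, each at its highest in enteroendocrine-like cells, at 67.0 and 78.3 CPM, 33.1 and 29.1 CPM and 40.5 and 50.4 CPM; in WT they were joined by Apoc2 and Lipa. Pnpla2 and Cpt1a were at similar levels in several classes, with Pnpla2 at 49.9 and 51.7 CPM in enterocyte-like cells and 51.4 and 57.5 CPM in goblet-like cells.

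To read the levels outside enterocyte-like cells against free RNA, each was expressed as a percentage of the enterocyte-like level in its own library and set beside the 12 enterocyte markers. In goblet-like cells the markers lay between 0.379% and 1.81% in WT and between 0.245% and 1.75% in the NFKO-labelled library, while the median lipid gene was at 18.4% and 10.5%. In each library 28 of the 37 exceeded the highest marker. The 9 that did not, in either library, were Apoa1, Apoa4, Apob, Apoc3, Mttp, Mogat2, Cd36, Fabp1 and Creb3l3. The share of all genes above the highest marker is not given here, and the markers are those that named the classes. Genes at similar levels in several classes pass it too, such as Pnpla2 and Cpt1a at 103% and 80.3% in WT. In goblet-like cells of the NFKO-labelled library Apoa1, Apoa4, Apob, Mogat2, Mttp and Fabp1 were at 0.745%, 0.518%, 0.971%, 0.836%, 0.817% and 0.232% of the enterocyte-like level. Whether these low levels are free RNA or low expression was not tested. In Paneth-like cells the marker median was 0.852% and 1.18%, and that of the lipid genes 3.45% and 2.88%. In enteroendocrine-like cells the markers themselves reached 238% in WT, for the peptide transporter gene Slc15a1, so that they set no background there.

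**Figure D3:**
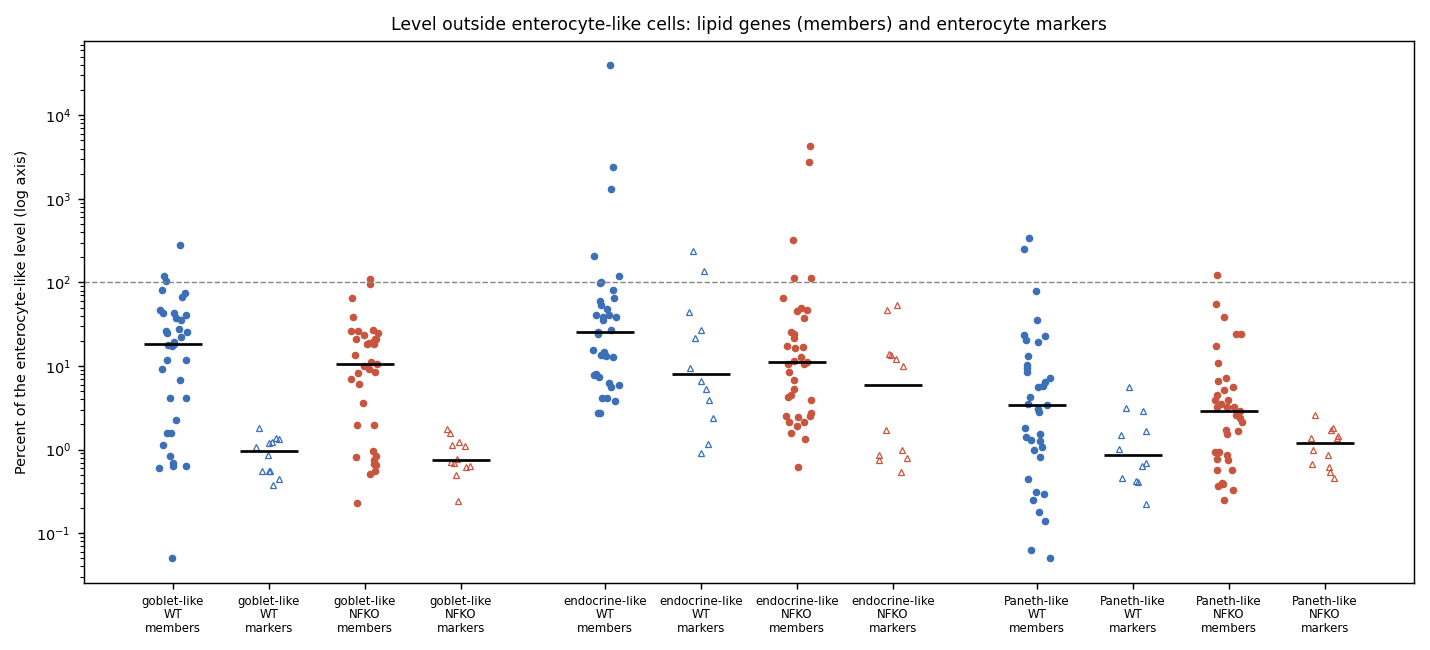
Level of each lipid gene (filled points, 37) and each enterocyte marker (open triangles, 12) in goblet-, enteroendocrine- and Paneth-like cells as a percentage of its level in enterocyte-like cells of the same library, on a log axis; black bars are medians, the dashed line is 100%, and values under 0.05% are drawn at 0.05%. In goblet-like cells the markers stay at or under 1.81% while the median lipid gene is at 18.4% in WT and 10.5% in the NFKO-labelled library.

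Apoa1 itself was higher in the NFKO-labelled library in each of 7 classes, with ratios from 2.64 to 13.0, at no more than 85.7 CPM over any class but enterocyte-like cells. With the UMIs of each cell thinned to 2000, dropping 30 shallower WT cells and 328 of the NFKO-labelled library, Apoa1 was seen in 54.5% (48.0 to 60.9, exact Clopper-Pearson) of enterocyte-like cells in WT and 78.9% (73.9 to 83.3) in the NFKO-labelled library; unthinned, the shares were 77.1% and 89.8%. In Paneth-like cells, which should lack it, it was seen in 0 of 262 WT cells, which by the limit of 3 counts allows a share of up to 1.15%, and in 9.43% of 244 cells of the NFKO-labelled library; the unthinned median depths were 12163 and 8714 UMIs for enterocyte-like and 52758 and 41009 for Paneth-like cells. Goblet-like cells of the NFKO-labelled library, at 11.7%, were near that share. Unthinned, Apoa1 was not absent from Paneth-like cells of WT. Over all their UMIs it was at 0.250% of the enterocyte-like level in WT and 0.398% in the NFKO-labelled library. Per UMI of Apoa1, goblet-like cells held 0.144 and 0.181 UMIs of Apoa4 in WT and the NFKO-labelled library, close to the 0.157 and 0.260 of enterocyte-like cells, but 4.52 and 6.48 UMIs of Apoc2, against 0.0779 and 0.232, and 165 and 14.95 of Fabp2, against 0.972 and 1.19. Apoc2 and Fabp2 were thus present in goblet-like cells in other proportions to Apoa1 than in enterocyte-like cells, whereas Apoa4 stayed within 1.5-fold of its proportion there.

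Goblet-like cells numbered 832 in WT and 1548 in the NFKO-labelled library and came from 3 clusters that the libraries filled unequally. Cluster 3, where the stress gene Hspa1a was at 579 and 84.4 CPM, held 579 and 23 cells; cluster 0, with the crypt-type gene Agr2 at 28961 and 35837 CPM, 166 and 742; and cluster 1, with the mature mucus gene Zg16 at 101589 and 213200 CPM, 87 and 783. Of 33 lipid genes with at least 50 UMIs, 15 were at least 1.5-fold higher over the class and 3 lower, beside 7.81% and 6.17% of 10965 genes, with a median log2 ratio of 0.56 against -0.03. Among male-typed cells alone 11 were higher and 3 lower of 28, beside 6.01% and 14.7% of all genes. The 12 enterocyte markers summed to 24.9 and 61.2 CPM over all goblet-like cells, and 7 of the 8 with enough UMIs were past the fold on the higher side; their part in the counts was not tested. Within single clusters the counts were 10 higher and 2 lower of 30 in cluster 0 (beside 12% and 3% of all genes), 10 and 4 of 28 in cluster 1 (beside 12.3% and 20.9%), and 7 and 8 of 25 in cluster 3 (beside 17.4% and 15%), where the NFKO-labelled library had 23 cells. On the lower side the share in cluster 1 was thus under that of all genes.

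The 5 highest class ratios in goblet-like cells were those of Apoc2, Apoa4, Rbp2, Apoa1 and Apoc3, and the 5 lowest those of Lrat, Acadl, Plin2, Cpt1a and Gpat3. Apoc2 was at 24.9 CPM (22.7 to 27.3) in WT and 309 (303 to 316) in the NFKO-labelled library, a ratio of 12.4 (11.3 to 13.7), and it was higher in each of the 3 clusters, at 19.1 and 79.4 CPM in cluster 0, 91.9 and 836 CPM in cluster 1 and 23.5 and 204 CPM in cluster 3. Its thinned share was 4.93% of goblet-like cells in WT and 33.7% in the NFKO-labelled library (24.9% and 72.2% unthinned), beside 1.22% and 10.5% of tuft-like cells, whose unthinned medians were 6153 and 14049 UMIs against 24262 and 21852 in goblet-like cells. The tuft-like share in WT rests on 1 of 82 cells (0.0309 to 6.61%) and cannot be told from the goblet-like one, while in the NFKO-labelled library the shares were apart (31.3 to 36.1% in goblet-like and 6.23 to 16.3% in tuft-like cells). Rbp2 was at 7.28 and 18.6 CPM, 128 and 321 CPM and 7.74 and 17.8 CPM in clusters 0, 1 and 3, and its ratios of 2.30 to 2.55 within them were far under the 9.25 of the class. The WT level of Rbp2 in cluster 1 rests on 85 UMIs, 43.5% of them in 3 cells. Apoa1, Apoa4 and Apoc3 were at 5.51 and 47.8 CPM, 0.795 and 8.64 CPM and 0.424 and 2.91 CPM, under 1% of the enterocyte-like level in the NFKO-labelled library.

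Acadl, the long-chain acyl-CoA dehydrogenase (ENSMUSG00000026003, chr1:66830839-66863277, minus strand), was lower in each goblet-like cluster of the NFKO-labelled library, at 102 and 36.1 CPM in cluster 0, 55.7 and 17.7 CPM in cluster 1 and 100.1 and 42.2 CPM in cluster 3. Its class ratio was 0.310 (0.286 to 0.335), and the cluster ratios ran from 0.317 to 0.422. Fabp2, the most abundant lipid gene of goblet-like cells, was at 911 CPM in WT and 714 in the NFKO-labelled library. It was seen in 72.0% and 64.5% of thinned goblet-like cells (95.4% and 93.4% unthinned), beside 13.4% and 17.6% of Paneth-like cells. In WT its goblet-like level was 119% of that over all enterocyte-like cells. It was lower than in the Mme-led cells of WT on either side of the Fabp6 limit, given above. Plin2 was at 18.4 and 11.5 CPM and lower in each cluster. Cpt1a had a class ratio of 0.667 (0.605 to 0.736), just inside the fold, and its cluster ratios ran from 0.818 to 1.20. Lrat had 69 UMIs in WT, 68 of them in cluster 3, and 8 in the NFKO-labelled library. Gpat3 was at 9.75 and 7.23 CPM. Dgat1 and Tm6sf2 were higher in each of the 3 clusters, with cluster ratios of 1.56 to 2.02 and 1.44 to 3.72.

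Across goblet states, 27 of the lipid genes had enough UMIs in both libraries to be compared. Cluster 1 had 11 of these 27 at least 2-fold above the other goblet-like cells in both libraries, beside 5.23% of all genes; clusters 0 and 3 had 0, beside 0.0738% and 0.812%. The 12 enterocyte markers summed to 81.3 and 106 CPM in cluster 1, 16.2 and 41.6 CPM in cluster 0 and 25.04 and 57.8 CPM in cluster 3. Apoa1, Apob and Fabp1, which did not exceed the highest marker over the class, are among the 11. The part of the markers was not tested. The 11 were Apoa1, Apob, Apoc2, Tm6sf2, Cideb, Dgat1, Slc27a4, Fabp1, Abcg5, Abcg8 and Rbp2. Rbp2 was 16.8-fold in WT and 17.3-fold in the NFKO-labelled library above the others, Apoc2 4.09-fold in WT and 10.2-fold in the NFKO-labelled library, and Abcg5 3.10-fold in WT and 4.23-fold in the NFKO-labelled library. The WT Fabp1 level there, 97.9 CPM, rests to 73.8% on 3 cells and is 26.3 CPM without them. For Apoa1, Apob, Apoc2, Tm6sf2 and Rbp2 3 cells held 55.9%, 50%, 47.5%, 45.5% and 43.5% of the WT UMIs. Without 3 cells the WT level of Apoc2 was 52.3 CPM. Apob was seen in 8 and Tm6sf2 in 9 of the 87 WT cells. For the remaining genes of the 11 the share of 3 cells in WT ran from 18% for Dgat1 to 35.3% for Slc27a4. Cells of cluster 1 were also the shallowest of the class, with medians of 4891 and 7273 UMIs.

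**Figure D4:**
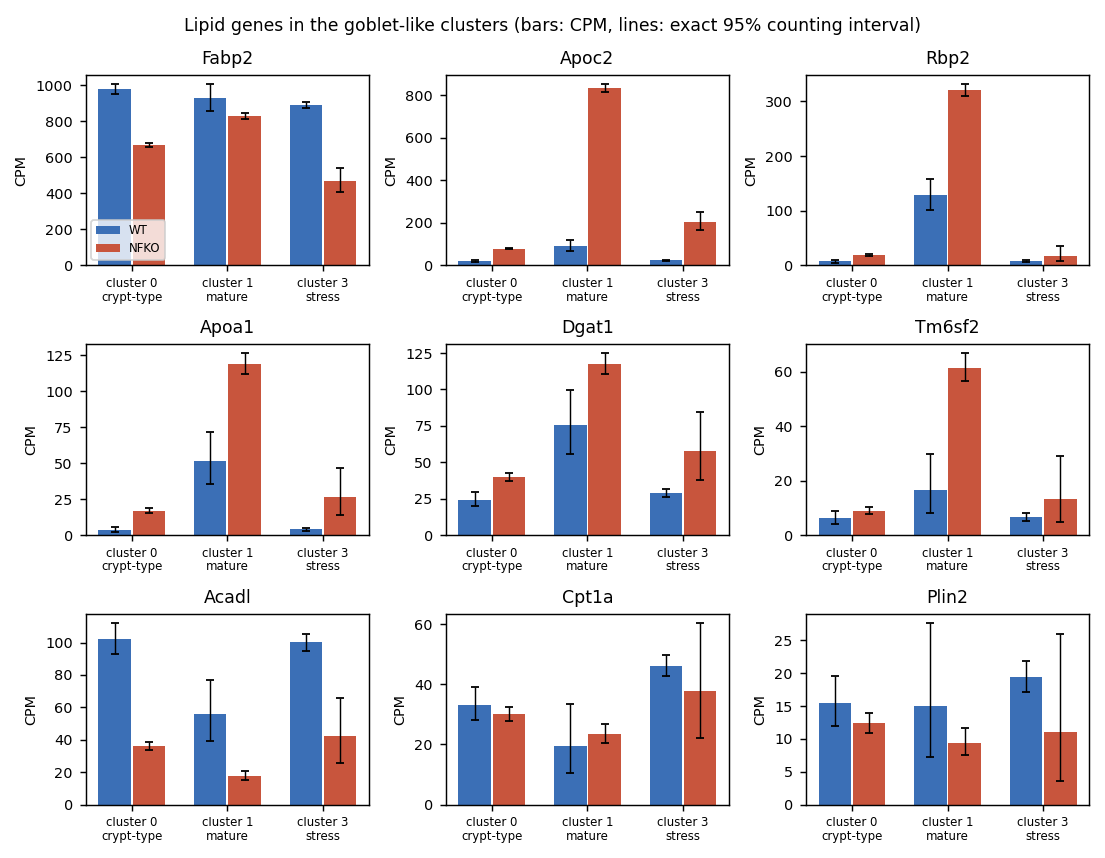
Levels of 9 lipid genes in the 3 goblet-like clusters, in CPM from 0, with WT in blue and the NFKO-labelled library in red; lines are exact 95% Poisson intervals. Apoc2 and Rbp2 are highest in the mature cluster 1 (836 and 321 CPM in the NFKO-labelled library), and Acadl is lower in that library in all 3 clusters.

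Enteroendocrine-like cells numbered 985 and 1887, and fewer lipid genes were past the fold in them. Of 36 with enough UMIs, 7 reached 1.5-fold on the higher side in the NFKO-labelled library and 3 on the lower, beside 6.37% and 6.41% of 12731 genes, with a median log2 ratio of 0.25 against -0.02. Male-typed cells alone gave 7 higher and 1 lower of 31, beside 6.11% and 12% of all genes. Of the 10 enterocyte markers with enough UMIs, 4 were past the fold on the higher side and 0 on the lower, a larger share than of the lipid genes; their part in the counts was not tested. The 5 highest ratios were those of Apoc2, Apoc3, Fabp1, Apoa1 and Gpat3, and the 5 lowest those of Acadl, Creb3l3, Cpt1a, Cd36 and Abcg8. Apoc2 was at 8.66 and 37.4 CPM, Apoc3 at 10.4 and 29.0 CPM, Apoa1 at 32.4 and 85.7 CPM and Gpat3 at 1.07 and 1.78 CPM, low levels beside Fabp1 at 47.1 and 128 CPM. On the lower side Acadl was at 157 CPM in WT and 93.6 in the NFKO-labelled library, a ratio of 0.596 (0.561 to 0.634), and lower in 6 of 8 clusters. Cpt1a was at 52.2 and 33.2 CPM, a ratio of 0.636 (0.573 to 0.707), and lower in 7 of 8. Creb3l3, Cd36 and Abcg8 were at 5.54 and 3.49 CPM, 3.13 and 2.28 CPM and 1.61 and 1.25 CPM.

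The main pattern in enteroendocrine-like cells was between subtypes. Against the other enteroendocrine-like cells, the Gip-led cluster 2 had 6 of 32 lipid genes at least 2-fold higher in both libraries, beside 2.94% of all genes: Rbp2, Fabp1, Scarb1, Ppara, Creb3l3 and Lipa. Rbp2 there was at 2332 CPM (2273 to 2393) in WT and 2990.5 (2950.3 to 3031) in the NFKO-labelled library, 16.8-fold in WT and 13.7-fold in the NFKO-labelled library above the rest of the class, and had a UMI in 243 of 268 and 435 of 445 cells. In WT that level exceeded the 520.0 CPM over all enterocyte-like cells, whose WT UMIs came to 89.1% from the Apol10a-led state. It did not exceed the WT level of Rbp2 in Fabp6-low Mme-led cells, given above. Fabp1 was at 171 and 410.4 CPM, Scarb1 at 195 and 201 CPM and Ppara at 21.7 and 26.9 CPM. Gip encodes the incretin of K cells, which respond to absorbed fat and sugar.

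The Tph1-led cluster 11, of 32 WT cells and 264 cells of the NFKO-labelled library, had 7 of 32 lipid genes at least 2-fold higher in both libraries, beside 6.27% of all genes: Apoa1, Apoa4, Apob, Apoc2, Apoc3, Cideb and Slc27a4. Tph1 encodes the enzyme of serotonin synthesis in enterochromaffin cells. Apob was at 524 and 497 CPM, of the order of enterocyte-like cells, and was seen in 27 of 32 and 235 of 264 cells. Apoa1 was at 924 and 658 CPM, but 77.1% of its WT UMIs came from 3 cells, without which the WT level was 239.9 CPM; without the 3 leading cells of the NFKO-labelled library it was 616 CPM. Apoc2 rested even more on 3 cells, with 94.8% and 42.6% of its UMIs, and was at 11.6 and 133 CPM without them. Apoa4 was at 219 and 28.8 CPM, and at 22.9 and 24.4 CPM without 3 cells. Apoc3 was at 146 and 173 CPM, with 64.3% and 24.2% of its UMIs in 3 cells. Without them it was at 59.3 and 134.5 CPM. Per UMI of Apoa1, cells of this cluster held 0.0526 and 0.108 UMIs of Fabp1 and 0.462 and 0.111 of Fabp2, against 0.773 and 0.806 and 0.972 and 1.19 in enterocyte-like cells. Without cluster 11, the class ratio of Apoa4 moved from 1.49 to 6.63 (3.87 to 12.3), with 74.0% of its WT UMIs in the class held by 3 cells, and the ratios of Apoa1, Apoc2 and Apoc3 were 3.53, 5.44 and 2.25.

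The other enteroendocrine-like clusters had 0 to 2 such genes. An Nts-led cluster of 50 and 127 cells, with 7 enteroendocrine markers raised but shallow medians of 3746 and 7862 UMIs, stayed unnamed and is in none of these counts; Apob there was at 148 and 181 CPM and Rbp2 at 81.1 and 176 CPM. The Neurog3-led progenitor cluster 5 had 1, Abca1, at 69.5 and 82.1 CPM, beside 3.34% of all genes. The Tac1-led cluster 6 had 0, beside 2.04%. The Gcg-led cluster 8 and the Cck-led cluster 19 each had Mttp, at 52.0 and 61.3 CPM and 70.3 and 70.7 CPM, beside 1.48% and 1.92%. The Sst-led cluster 17 had Apob, at 322 and 285 CPM, and Dgat2, at 26.9 and 15.8 CPM, beside 1.94%, and the Pyy-led cluster 18 had Fabp2, at 535 and 275 CPM, and Soat2, at 27.9 and 21.8 CPM, beside 1.57%. The Cck-led, Pyy-led and Sst-led clusters held 13, 29 and 35 WT cells, so that their WT values rest on few cells. In the Sst-led cluster of WT, Dgat2 had a UMI in 6 cells, with 62.5% of its UMIs in 3 of them. Without the 3 leading cells of each library Dgat2 was at 10.9 and 12.1 CPM there. Apob was present in all 8 clusters, from 42.5 to 524 CPM in WT. Its ratio was under 1 in each of them, from 0.402 to 0.973. Over sets of clusters, which the libraries filled unequally, its ratio was 1.04 (0.968 to 1.11) without the Gip-led cluster. Without the Tph1-led cluster it was 0.755 (0.704 to 0.810).

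**Figure D5:**
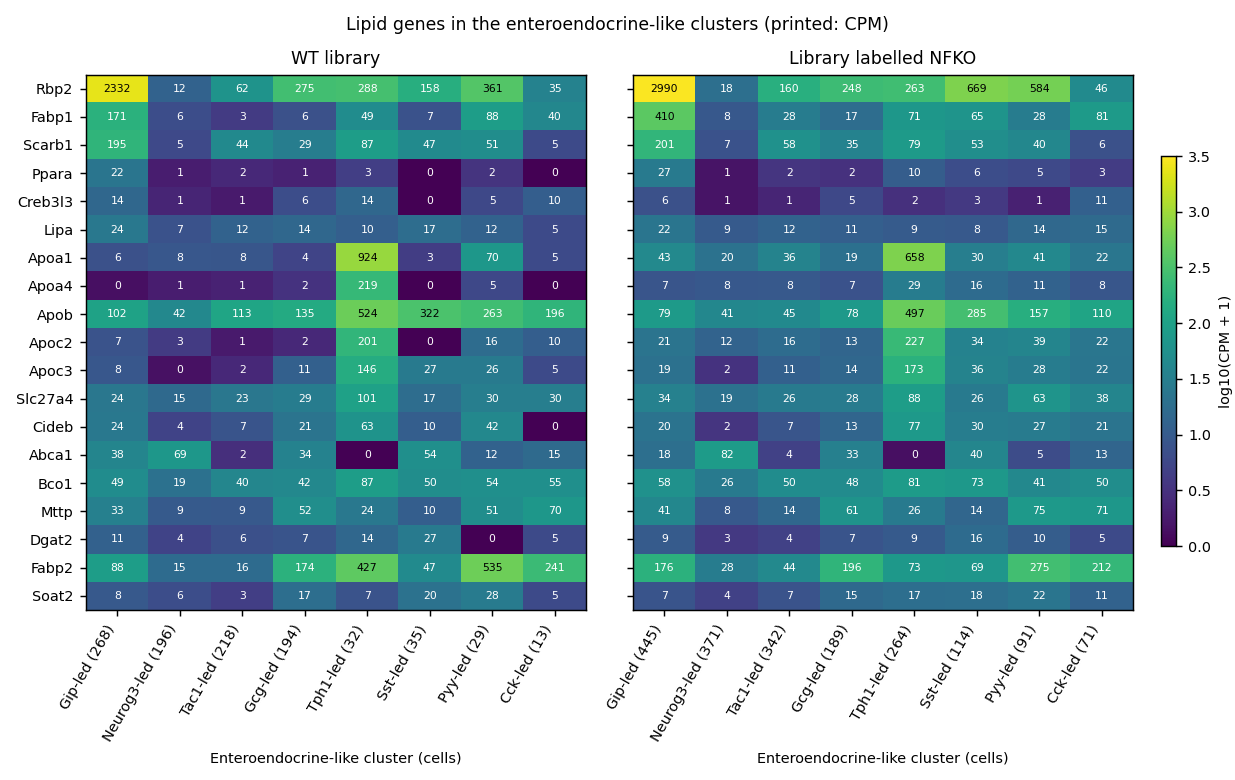
Levels of 19 lipid genes in the 8 enteroendocrine-like clusters of each library, coloured by log10(CPM + 1) with the CPM printed; each column is a cluster named by its leading hormone panel gene, with its number of cells. Rbp2 peaks in the Gip-led cluster at 2332 and 2990.5 CPM, and Apoa1, Apob, Apoc2 and Apoc3 in the Tph1-led cluster.

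In Paneth-like cells Apoc2 stood apart, at 209.9 CPM (204 to 216) in WT and 358 (349 to 368) in the NFKO-labelled library. It was seen in 26.3% and 48.4% of thinned Paneth-like cells (81.4% and 91.1% unthinned). In WT the level was 342% of that over all enterocyte-like cells, whose WT UMIs came to 89.1% from the Apol10a-led state. It was lower than the WT level in Fabp6-low Mme-led cells, given above. In tuft-like cells, of which there were 88 and 190, Fabp1 was at 1484 CPM (1393 to 1579) in WT and 1094 (1053 to 1136) in the NFKO-labelled library, with 40.8% and 42.2% of its UMIs in 3 cells. Its thinned share was 32.9% and 27.8% of tuft-like cells (38.6% and 44.2% unthinned), beside 0 of 262 and 3.28% of Paneth-like cells. Over all UMIs of Paneth-like cells Fabp1 was at 0.142% and 0.248% of the enterocyte-like level. Each of these genes thus had a high level in a secretory or chemosensory class as well as in enterocyte-like cells.

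Across classes, 19 lipid genes had at least 50 UMIs in each of the 7. Here higher and lower mean a ratio over or under 1 with no fold required. Of the 19, Apoa1, Apoc2, Tm6sf2, Acsl5, Agpat2, Plin3 and Pnpla2 were higher in the NFKO-labelled library in every class, which is 7 of 19 beside 12% of all genes, and 1, Cpt1a, was lower in every class, beside 11.9%. The Cpt1a ratios ran from 0.559 in enterocyte-like to 0.779 in cycling cells. Its levels were 57.0 and 36.4 CPM in stem-like, 72.9 and 41.8 CPM in tuft-like and 10.7 and 7.01 CPM in Paneth-like cells. Acadl, in contrast, was lower in Paneth-like cells (60.8 and 20.8 CPM) and higher in enterocyte-like cells (261 and 370.1 CPM).

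A wider list of 70 genes of lipid handling was compared in the same 3 classes. In enterocyte-like cells 14 of 56 with at least 50 UMIs were at least 1.5-fold higher in the NFKO-labelled library and 3 lower, in goblet-like cells 9 and 3 of 58, and in enteroendocrine-like cells 10 and 4 of 60, beside the shares of all genes given above for each class (10.5% and 9.49%, 7.81% and 6.17%, 6.37% and 6.41%), with median log2 ratios of 0.24, 0.06 and 0.16. The shares on the lower side were thus near or under those of all genes. Among the highest ratios in enterocyte-like cells were those of Rdh7 (9.41), Pdk4 (6.25), Aldh1a1 (3.86) and Cidec (3.85), of which Rdh7 and Aldh1a1 encode enzymes of retinoid oxidation. Among the lowest were those of Acaca (0.554), Fitm2 (0.576), Scd2 (0.662) and Bscl2 (0.731). Pdk4, which turns fuel use from glucose to fat, was at 5.30 and 0.654 CPM in goblet-like and 50.6 and 29.8 CPM in enteroendocrine-like cells, lower in the NFKO-labelled library in both. In goblet-like cells Abcg1 (5.72), Aldh1a1 (3.55), Fabp5 (2.60) and Acsl3 (1.89) were among the highest ratios, and Pdk4 (0.124), Angptl4 (0.175), Fabp6 (0.388), Slc27a2 (0.673) and Lipe (0.708) the lowest. In enteroendocrine-like cells Lpl, which encodes lipoprotein lipase, was at 6.07 CPM in WT and 57.8 in the NFKO-labelled library, a ratio of 9.52 (7.46 to 12.3), followed by Aldh1a1 (2.37), Apoa5 (2.22), Bco2 (1.90) and Rbp4 (1.76), and the lowest were Apoa2 (0.268), Fabp6 (0.289), Pdk4 (0.589), Slc27a1 (0.660) and Acsl3 (0.687).

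Markers of cells from outside the epithelium were near 0 in enterocyte-like cells. The lists of T cells (8 genes), macrophages (7), B or plasma cells (5), endothelium (5) and pancreatic acinar cells (6) each summed to at most 2.54 CPM in either library, and all 5 mesenchymal markers were at 0 in both. The 12 enteroendocrine markers summed to 127 and 406 CPM in enterocyte-like cells and the 12 enterocyte markers to 1175 and 1215 CPM in enteroendocrine-like cells; their part in the results was not tested.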

How the data were processed

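Single-cell RNA-Seq was carried out on the 10x Genomics 3′ platform, 1 library per group. The authors deposited raw UMI counts per gene and cell barcode, made with Cell Ranger 5.0.1 on mm10 according to the file header and the submitters' processing notes; the annotation release is not given in the sources used here. The deposited counts gave 90002878 UMIs over 5051 barcodes in WT and 124300388 over 7540 in the NFKO-labelled library.

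Barcodes with at least 500 genes and 1000 UMIs and under 25% mitochondrial UMIs were kept. Scrublet (Scanpy 1.11.5) marked 0 doublets at its automatic threshold, so that the highest scores were removed at 0.8% per 1000 barcodes (147 and 345). Cells were clustered in Seurat 5.3.0 (R 4.3.3; 2000 variable genes without the 37, 30 components, 20 neighbours, resolution 0.8, and 1.4 for enterocyte states), and clusters were called X-like from fixed markers; 3 of 20 clusters stayed unnamed, among them an Nts-led one with endocrine markers, which the enteroendocrine-like class leaves out. UMIs were summed per class and library and divided by the class total. With 1 library per group there is no test: a gene with at least 50 UMIs over both libraries was counted as higher or lower at 1.5-fold, and levels between classes or clusters at 2-fold (clusters: in both libraries). Intervals were exact and were checked on simulated data (Python 3.11.15, SciPy 1.17.1).

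Genes were named by rule: every lipid gene by its level in enterocyte-like cells, the 5 highest and 5 lowest ratios per class, those 2-fold above the remaining cells of the class in each endocrine or goblet cluster, and the 5 highest and lowest of the wider list, of which some are not reported here; others were named after their values were seen. The members and lists were chosen with earlier results of these data known.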

Additional observations from a re-analysis of the deposited data

Results flagged for a closer look

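The ratio of the NFKO-labelled library to WT for Creb3l3 was 2.44 in enterocyte-like cells and 0.631 in enteroendocrine-like cells, and that for Lrat was 2.73 in enterocyte-like cells and 0.0716 in goblet-like cells. Each gene was listed because its ratios lay past 1.5-fold in opposite directions in a pair of classes. Within the enterocyte states the ratio of Creb3l3 was 1.32 and 1.36, so that the higher side did not stay past the fold. In enteroendocrine-like cells the ratio of Creb3l3 was 0.785 (0.488 to 1.29) without the Gip-led cluster. Within the Gip-led cluster it was 0.467, past the fold on the lower side. Of the 69 UMIs of Lrat in goblet-like cells of WT, 68 lay in cluster 3, which held 579 WT cells and 23 of the NFKO-labelled library. With 1 library per group the difference between the classes was not tested.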

How the results depend on the processing

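No paired analysis was possible because each group had 1 library, and no replicate could be left out. Among the counts and summaries recomputed under each alternative, 119 stayed within 1.5 times the reported count, or within the spread of the reported summary, and 19 did not. Among values of single genes 276 stayed inside the counting interval, 148 moved outside it and 2 past the fold changed direction. The division into enterocyte states and Fabp6 strata, the single goblet clusters and the endocrine subsets were chosen after seeing the data. Lipid genes at least 1.5-fold higher in enterocyte-like cells of the NFKO-labelled library were 24 of 35 over the class, beside 955 of 9081 genes. They numbered 14 of 26 in the Fabp6-high Mme-led cells, beside 675 of 2205 genes. In the Apol10a-led state they numbered 11 of 33, beside 575 of 8232 genes. Its Fabp6-low cells had 9 of 33, beside 582 of 7631 genes, and its Fabp6-high cells 2 of 23, beside 411 of 4386. Those lower were 1 of 35 over the class, beside 862 of 9081 genes. They numbered 0 of 32 in male-typed cells, beside 1250 of 7457 genes, and 0 of 35 at 2-fold, beside 198 of 9081. In the Mme-led state they were 0 of 34, beside 1199 of 6339 genes. Its Fabp6-low cells had 0 of 34, beside 920 of 5785, and its Fabp6-high cells 2 of 26, beside 443 of 2205. Fabp6-low Apol10a-led cells had 2 of 33, beside 661 of 7631 genes, and Fabp6-high ones 6 of 23, beside 379 of 4386. In goblet-like cells the 15 higher of 33 became 8 of 34 with classes from marker scores, beside 874 of 11100 genes. In cluster 3 they became 7 of 25, beside 1584 of 9127 genes, and the 3 lower became 8 of 25, beside 1366. In enteroendocrine-like cells the 7 higher of 36 became 4 at 2-fold, beside 345 of 12731 genes. The 3 lower of 36 became 0 at 2-fold, beside 252 of 12731 genes. In male-typed cells they became 1 of 31, beside 1280 of 10675 genes, and without the Gip-led cluster 1 of 35, beside 626 of 12283. The 23 genes highest in enterocyte-like cells of WT became 14 at 4-fold. The ratio of Cpt1a in enterocyte-like cells turned to 1.01 in the Mme-led state, and that of Apoc3 in goblet-like cells to 0.850 in cluster 1. Smaller samples and stricter folds account by construction for part of these; otherwise the cause was not tested. Scarb1 and Bco1 were scarce in enterocyte-like cells, and their few UMIs limit their ratios there. Depth limits WT values of the Mme-led state and of small clusters.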
